A study of Mus musculus with 6 samples.

Results

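The transcriptome described here is that of untreated thymic iNKT1 cells from control mice. Its members were the genes with at least 1 CPM (a gene's reads divided by the reads of its library and put on a common scale) in each of the 3 control libraries. This held for 11373 of the 17985 genes in the deposited table, or 63.2%, and these genes are called expressed below. The series holds 6 RNA-seq libraries, and the 3 libraries of mice with an added conditional Tgfbr2 deletion were not used here. The control mice were on a C57BL/6 background with the genotype Tbx21CreTg;Rosa26-LSL-YFP+/+, that is, a Cre transgene driven by Tbx21 and a Cre-dependent yellow fluorescent protein reporter. The controls thus carry Cre and reporter themselves, and Cre activity is set by Tbx21, a gene these cells are defined by. The surface markers used to sort the cells, the age of the mice and the number of mice behind each library are not given in the sources used here. The design text calls the libraries independent replicates. The spread given after ± is the standard deviation (SD) over the 3 libraries (n = 3) throughout, and a value list gives replicates 1, 2 and 3 in that order. With 1 group there is no contrast, so no test was run.

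Invariant natural killer T (iNKT) cells are T cells whose antigen receptor pairs a nearly invariant alpha chain, built from Trav11 and Traj18, with a limited set of beta chains, and which recognise lipids presented by CD1d. They are selected by double-positive thymocytes and acquire effector programmes in the thymus under the transcription factor PLZF, encoded by Zbtb16. The iNKT1 subset is defined by T-bet, the product of Tbx21, with low PLZF, and is known for interferon-gamma production, NK-type receptors, dependence on interleukin 15 through the receptor beta chain Il2rb, and long residence in the thymus. The iNKT2 and iNKT17 subsets are known for interleukin 4 and for interleukin 17, respectively.

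Levels of different genes are compared per kilobase (kb), since longer transcripts yield more reads. The deposited width column served as the length, and the union of a gene's exons in GENCODE M21 as the alternative. The deposited width equalled the exon lengths summed over all annotated transcripts for 59.1% of 17835 matched genes and the union of exons for 19.5%, with a median ratio of width to union of 1.26. Division by width therefore gives lower levels to genes with many annotated transcripts. Both values are given where they differ by much, and where an order of genes differed between the lengths this is said. Over expressed genes the median level was 37.4 CPM, 5.44 CPM per kb of width and 8.26 CPM per kb of union exons.

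Promoter sequence is shown for 4 genes on which the description turns: Tbx21, Ifng and Klrb1c, which mark the cells, and Nkg7, a granule membrane protein gene among the highest levels per kb. Each is the 100 bases upstream of the RefSeq transcription start on GRCm38.p6, written 5′ to 3′ on the gene's strand. Capitals mark motif matches, searched on both strands. The GC box was searched as GGGCGG. The letters of the TATA box were TATAAA. For the core bound by RUNX factors the letters were TGTGGT, and for the core bound by T-box factors GGTGTG. An ETS-type core, CCGGAA, was also searched and had no match in these 4 sequences. Tbx21 lies at chr11:97115332-97115431 on the minus strand, Ifng at chr10:118440946-118441045 on the plus strand, Klrb1c at chr6:128788642-128788741 on the minus strand and Nkg7 at chr7:43437038-43437137 on the plus strand. The Klrb1c window lies inside the gene's span in the deposited table, which begins further upstream.
Tbx21: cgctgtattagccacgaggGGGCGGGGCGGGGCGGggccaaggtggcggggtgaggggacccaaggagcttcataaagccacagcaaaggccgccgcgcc
Ifng: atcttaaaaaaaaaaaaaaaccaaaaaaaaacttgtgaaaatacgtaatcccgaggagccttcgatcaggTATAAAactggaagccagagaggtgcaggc
Klrb1c: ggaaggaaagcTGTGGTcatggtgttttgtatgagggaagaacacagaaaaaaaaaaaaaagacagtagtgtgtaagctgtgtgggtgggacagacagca
Nkg7: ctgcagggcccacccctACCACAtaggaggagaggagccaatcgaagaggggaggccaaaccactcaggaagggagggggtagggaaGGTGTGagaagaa
The Tbx21 window held 3 overlapping GGGCGG matches and 9 CG pairs. The Ifng window held TATAAA, beginning 30 bases before the start, and 3 CG pairs. The Klrb1c window held no CG pair and 1 TGTGGT match, and the Nkg7 window held 1 CG pair, 1 TGTGGT match on the other strand and 1 GGTGTG match.

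Among 8421 expressed protein-coding genes with a promoter entry, of 10435, GGGCGG was found in 48.6% of these windows, against 24.7% of all 32851 promoters. These sets are unlike. The expressed set holds the first entry of each protein-coding gene, and the other holds every promoter entry, with no filter on gene class. Unexpressed protein-coding genes were not compared, so what the differences reflect was not tested. The share with TATAAA was 1.96%, against 5.56% of all promoters, so that the Ifng window belonged to a small group of expressed genes by this feature. The median number of CG pairs was 8 in expressed protein-coding genes and 3 in all promoters, and 2.85% against 20.7% held none, as the Klrb1c window did. TGTGGT stood in 3.57% of the expressed windows and 5.61% of all, and GGTGTG in 5.78% and 6.995%. For CCGGAA the shares were 16.5% and 7.23%. A match describes the letters only.

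The libraries held 33633224, 30774404 and 52952416 reads, so that 1 read was worth 0.0297, 0.0325 and 0.0189 CPM. Replicate 3 stood apart: 4406 genes were at 0 in it, against 0 and 1 genes in replicates 1 and 2, although it was the deepest library. Counted per library, 17284, 16708 and 11615 genes reached 1 CPM. Without replicate 3 the number of expressed genes was 16148, and without replicate 1 or replicate 2 it was 11477 or 11465, so replicate 3 set the size of the expressed set. The genes at 0 in replicate 3 had medians of 2.14 and 1.79 CPM in replicates 1 and 2 and made up 1.55% and 1.30% of those libraries. The cause of this difference was not tested.

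**Figure D1:**
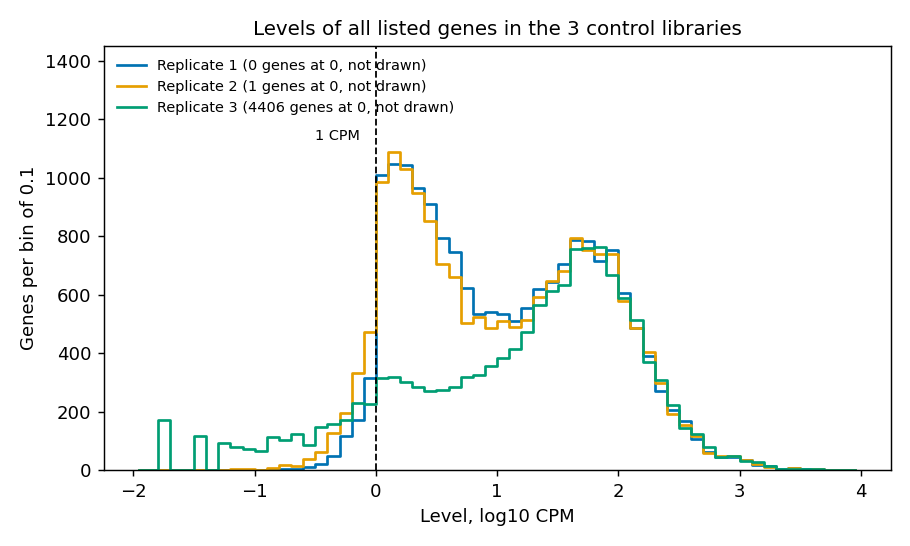
Number of genes (vertical axis, per bin of 0.1) at each level (horizontal axis, log10 CPM) in replicates 1, 2 and 3; the dashed line is 1 CPM and genes at 0 are not drawn. The 3 curves nearly coincide above 100 CPM and part below that, and replicates 1 and 2 have a second peak just above 1 CPM that replicate 3 lacks.

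Expressed genes had similar levels in the 3 libraries, but the rule favours this, since it leaves out genes below 1 CPM in any library. The log2(CPM + 1) values of expressed genes correlated across genes at 0.991 for replicates 1 and 2. For replicates 1 and 3 the value was 0.978, and for replicates 2 and 3 it was 0.982. Over all listed genes, a set chosen after seeing the data, the values were 0.989, 0.949 and 0.958. Genes are not independent replicates. The median level of expressed genes was 37.4, 37.4 and 37.0 CPM. Of the 11373 genes, 2653 had a mean from 1 to 10 CPM, 6226 from 10 to 100, 2411 from 100 to 1000 and 83 of at least 1000. The chi-square statistic of the reads per degree of freedom was 18.7, 115 and 98.2 for the same pairs, more than sampling noise gives, and each library was kept as its own replicate. By the table's annotation, 10435 of 14539 protein-coding genes were expressed, against 204 of 579 lincRNA genes and 202 of 997 pseudogenes.

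At the threshold itself stood Tdrkh, with 4.13, 3.61 and 1.001 CPM, and Serpinb9b, with 2.11, 1.69 and 1.001 CPM, just inside, and Prg4, with 2.02, 2.79 and 0.982 CPM, and Lmln, with 2.65, 2.05 and 0.982 CPM, just outside. In each of the 4 it was replicate 3 that was lowest.

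All 7 iNKT1 markers were expressed, and 5 of them were at or above percentile 90 of expressed genes per kb of width. The defining genes of the labelled cell type were thus present in each library. Their sum was 4582, 4868 and 6082 CPM.

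Il2rb, the beta chain shared by the receptors for interleukins 2 and 15, had 2357, 2896 and 3521 CPM, or 638 ± 127 CPM per kb of width, rank 42 of the 11373 expressed genes. Its 3 values did not overlap those of any other marker on this scale. Cxcr3, the receptor for interferon-induced chemokines, had 704, 731 and 781 CPM, or 427 ± 22.6 CPM per kb, and Tbx21 had 679.8, 828 and 830.4 CPM, or 313 ± 34.6 CPM per kb. For these genes the ranks were 65 and 97. For each of these genes width and union exons were the same length, and the lowest Cxcr3 library exceeded the highest Tbx21 library. Tbx21 lies at chr11:97098071-97115331, Cxcr3 at chrX:101731535-101734269 and Il2rb at chr15:78480553-78495066 (GRCm38, as in the deposited table).

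Ccl5, a chemokine stored by effector and memory lymphocytes, had 196, 153 and 151 CPM, or 139 ± 21.2 CPM per kb of width and 174 ± 26.5 per kb of union exons. Klrb1c, the gene of the NK1.1 antigen, had 566, 179.9 and 703 CPM, or 83.4 ± 46.8 CPM per kb of width and 163 ± 91.7 per kb of union exons. Replicate 2 was the low library for Klrb1c, more than 3-fold below either other value, and the ratio of the highest to the lowest library was larger than for any other marker. The order of Ccl5 and Klrb1c was not fixed: their libraries did not overlap by width, at 125 CPM per kb in the lowest for Ccl5 and 121 in the highest for Klrb1c, and did by union exons. Ccl5 lies at chr11:83525778-83530518 and Klrb1c at chr6:128778485-128789215.

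Ifng, the cytokine gene by which the subset is best known, had 37.1, 33.2 and 36.1 CPM, or 29.4 ± 1.68 CPM per kb of width. Zbtb16 had 42.5, 46.9 and 60.1 CPM, or 9.77 ± 1.803 CPM per kb. Per kb this was the lowest level of the 7 markers by either length, with no library reaching those of Ifng. In CPM, without length scaling, the order was reversed, and every Zbtb16 library was above every Ifng library. Per kb of width the percentile of Zbtb16 among expressed genes was 64.7, and that of Ifng was 85.6. Ifng lies at chr10:118441047-118445892 and Zbtb16 at chr9:48654311-48835945. In the deposited table the markers are ENSMUSG00000068227 (Il2rb), ENSMUSG00000050232 (Cxcr3), ENSMUSG00000001444 (Tbx21), ENSMUSG00000035042 (Ccl5), ENSMUSG00000030325 (Klrb1c), ENSMUSG00000055170 (Ifng) and ENSMUSG00000066687 (Zbtb16).

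**Figure D2:**
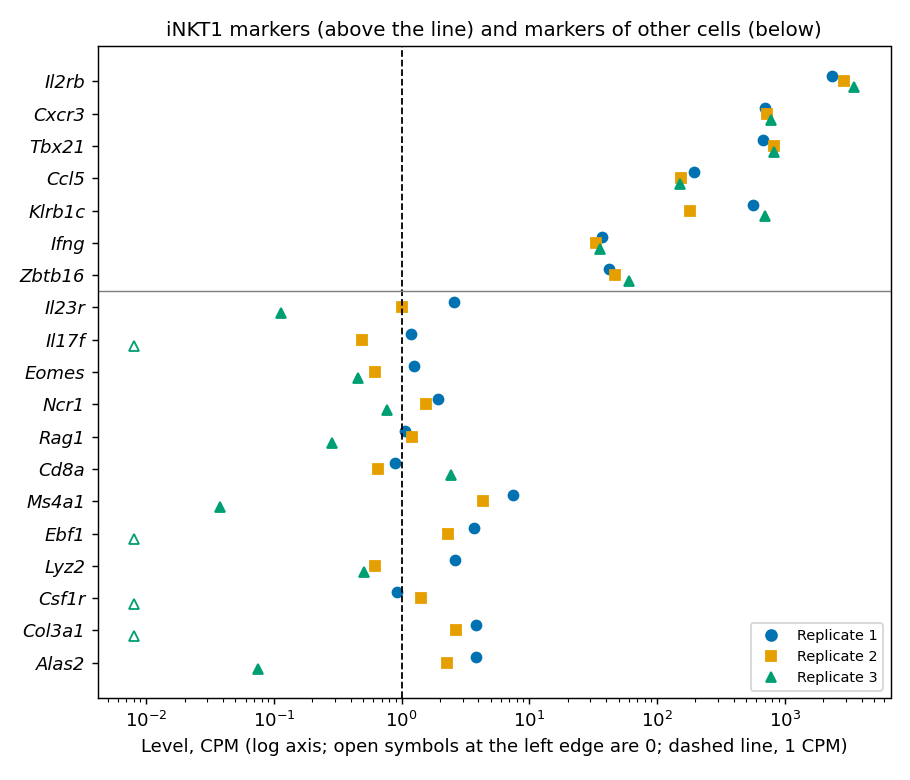
Level in CPM (log axis) of the 7 iNKT1 markers, above the grey line, and of 12 genes that mark other cells and did not pass the threshold, below it, in replicates 1, 2 and 3; open symbols at the left edge are values of 0 and the dashed line is 1 CPM. All marker values lie above 30 CPM, and Klrb1c is low in replicate 2. The other genes drawn, chosen after their values were seen, lie at 8 CPM or less, most of them lowest in replicate 3. Genes of the same lists that passed, such as Ighm, Cst3, Cd4, Pecam1 and Tcrg-C1, are not drawn. Of the 10 iNKT2 genes in the table, all of which passed, only Zbtb16 is drawn. The gap between the 2 groups drawn therefore does not hold for the full lists.

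Genes of other cells were looked at in the same libraries. Counts of expressed genes in the lists here and below stand beside 63.2% of all 17985 listed genes. Without replicate 3, 16148 of the 17985 passed. Of 8 iNKT17 genes in the table, 2 were expressed: Il7r, which iNKT1 cells share, and Serpinb1a with 11.4, 9.13 and 2.87 CPM. Il23r had 2.56, 1.01 and 0.113 CPM and the cytokine gene Il17f had 1.19, 0.487 and 0 CPM. Without replicate 3 the count was 5 of 8. All 10 iNKT2 genes in the table were expressed, with Il4 at 24.6, 37.5 and 44.3 CPM, Icos at 168, 210.4 and 268 CPM and Il17rb, a receptor of interleukin 25, at 9.57, 13.8 and 17.1 CPM. The list includes Gata3 and Zbtb16, which iNKT1 cells also use, and in pooled RNA fewer cells of a type and less RNA per cell cannot be told apart. Replicate 3 was the highest library for 8 of the 10, all but Il6ra and Ccr4. The share of all expressed genes highest in replicate 3 was not computed, so this count does not single out the list. Outside it, Il2rb and Gzmb were also highest in replicate 3, and Il7r was lowest there.

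Of 8 B cell genes 4 were expressed, and the list summed to 413, 372 and 394 CPM, of which Ighm made 377, 343 and 371 CPM. Cd22, an inhibitory B cell receptor, had 16.6, 15.9 and 18.3 CPM. Cd79a, a chain of the B cell receptor complex, had 2.11, 2.47 and 2.91 CPM and Ms4a1, the gene of CD20, had 7.52, 4.35 and 0.0378 CPM, while Ebf1 had 3.72, 2.31 and 0 CPM. Of 8 myeloid genes 4 were expressed, and the list summed to 112, 110 and 104 CPM, of which Cst3, a broadly expressed protease inhibitor, made 95.7, 96.96 and 95.6 CPM, with Csf1r at 0.922, 1.43 and 0 CPM and Lyz2 at 2.62, 0.617 and 0.510 CPM. Epithelial and stromal genes passed in 2 of 6 cases and summed to 34.9, 40.1 and 41.6 CPM, of which Pecam1, an endothelial and leukocyte adhesion molecule, made 22.98, 26.6 and 30.6 CPM. Without replicate 3 the counts were 7 of 8 for B cell genes, 6 of 8 for myeloid genes and 6 of 6 for epithelial and stromal genes. The immature thymocyte list summed to 268, 295 and 259 CPM. In it 7 of 11 genes were expressed, or 9 without replicate 3. That share, 63.6%, was near the 63.2% of all listed genes. Cd4, also a gene of many iNKT cells, made 112, 122 and 129 CPM of it, and Rmnd5a made 53.6, 72.2 and 56.7 CPM. Cd8b1 had 3.89, 3.80 and 2.02 CPM and Dntt, the terminal transferase of receptor rearrangement, had 3.33, 2.31 and 2.42 CPM. Rag1, a recombinase gene, had 1.07, 1.202 and 0.283 CPM and Cd8a 0.892, 0.650 and 2.42 CPM. Of the NK and innate lymphoid list 5 of 9 genes were expressed, or 7 without replicate 3. Tcrg-C1, a constant region of the gamma chain, had 83.3, 104 and 157 CPM, highest in replicate 3. Klra4, a Ly49 receptor, had 42.7, 44.5 and 14.1 CPM and Itga2, an integrin chain of NK cells, had 14.9, 18.002 and 12.9 CPM. Eomes, which separates conventional NK cells from iNKT1 cells, had 1.25, 0.617 and 0.453 CPM and Ncr1, the NKp46 receptor, 1.93, 1.56 and 0.774 CPM. The part of such cells in the levels below was not tested.

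Of 26 listed genes of the antigen receptor complex and its signalling 25 were expressed, all but Cd8a, and the list made 1.496 ± 0.0709% of each library. Their median was 65.6 CPM per kb of width and 99.5 per kb of union exons, against 5.44 and 8.26 for all expressed genes. The lists were chosen with results of these data known, so these counts describe and do not test. Trac, the constant region of the alpha chain, had 1591, 1565 and 1875 CPM, or 4060.3 ± 416 CPM per kb of width and 1793 ± 184 by union exons. Cd3e, a signalling chain of the receptor complex, had 1293, 1390.4 and 1479 CPM, Cd3g 1075, 1068 and 1243 CPM and Trbc2 439.6, 483 and 554 CPM. The spread of these genes between libraries was small beside their level. Lck, the kinase that starts receptor signalling, had 1538, 1423 and 1711 CPM.

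Of the 8 receptor segments listed for iNKT cells, 6 had a row in the table used here, and all 6 were expressed. Trav11 and Trav11d, the variable segments listed for the invariant alpha chain, had no row, so that part of the chain was not seen. Traj18, the joining segment of the invariant alpha chain, had 14.7, 15.01 and 17.8 CPM, or 240.04 ± 26.2 CPM per kb, on a very short gene. Trbv13-2, the Vbeta8.2 segment, had 105, 114 and 118 CPM, or 330.3 ± 19.2 CPM per kb, Trbv1 had 78.2, 87.1 and 73.6 CPM and Trbv29, the Vbeta7 segment, 35.7, 33.7 and 56.9 CPM. Reads over a rearranged segment can be lost or split between near-identical segments, so these levels are uncertain. Cd1d1, which presents the lipid antigen, had 55.5, 51.8 and 55.3 CPM. All 9 SLAM family genes examined, receptors and their signalling partners, were expressed. Cd48 had 284, 242 and 227 CPM, Ly9 411, 399.8 and 424 CPM and Slamf6 14.3, 22.1 and 25.8 CPM. Sh2d1a, the SAP adaptor, had 62.6, 65.9 and 84.7 CPM.

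Of 30 lineage transcription factors 28 were expressed, and Eomes was not. Id2, an inhibitor of E proteins, led this list under both lengths, with 2718, 2694 and 3273 CPM, or 2279 ± 258 CPM per kb of width and 1187 ± 134 by union exons. Tbx21 followed. Zfp683, which encodes the residency factor Hobit, had 207, 223 and 216 CPM, and Gata3 had 197, 199 and 209 CPM. The libraries lay close together for both. Tcf7, which encodes TCF-1, had 312, 247 and 257 CPM, Runx3 had 206, 226 and 208 CPM and Hopx, a homeodomain-only protein of effector lymphocytes, had 283, 235 and 224 CPM. Klf2, a factor for egress genes, varied more than these, at 260.2, 179.6 and 106 CPM, highest in replicate 1 and lowest in replicate 3. Id3 had 33.2, 29.9 and 31.3 CPM, Maf 40.97, 40.7 and 49.3 CPM and Irf4, an activation-induced factor, 1.01, 2.86 and 3.46 CPM.

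Cytokine receptors passed in 21 of 24 cases, with a median of 34.8 CPM per kb of width. Il2rb led this list by either length. Il7r, the interleukin 7 receptor, had 1128, 919 and 749 CPM, and the common chain Il2rg had 969, 844 and 883 CPM. For Il7r replicate 1 was highest and replicate 3, the highest library for Il2rb, was lowest. Ifngr1, a chain of the interferon-gamma receptor, had 992, 940.2 and 950.3 CPM and Il12rb2, a chain of the interleukin 12 receptor, had 322, 337 and 278 CPM. Of the chains for interleukin 18, Il18r1 had 201, 187 and 109.9 CPM and Il18rap had 349, 333 and 299 CPM. Il2ra, the chain that marks high-affinity interleukin 2 binding, had 8.12, 9.36 and 8.44 CPM, far below Il2rb per kb, at 1.46 ± 0.109 CPM per kb of width. The members that did not pass were Il1rl1, Il1r1 and Il23r, and all 24 passed without replicate 3.

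Secreted cytokine and chemokine genes were expressed in 16 of 16 cases. Xcl1, a chemokine for cross-presenting dendritic cells, had 168, 164 and 212 CPM, or 346 ± 50.8 CPM per kb. Ltb, which encodes lymphotoxin beta, had 991, 1114 and 1372 CPM, or 333 ± 55.8 CPM per kb of width and 765 ± 128 by union exons. Both were far above Ifng per kb by either length, in every library. Il16 had 392, 383 and 353 CPM, Ccl4 4.37, 4.68 and 7.93 CPM, Tnf 11.2, 15.4 and 19.8 CPM, Csf2 1.58, 2.79 and 2.25 CPM and Il2 2.65, 1.66 and 1.08 CPM. Per kb Il16 was the highest of these 5 genes by either length. Il13, Il10, Il17a, Il21, Il22, Areg and Ccl3 had no row in the table used here.

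Chemokine receptors were unequal in level: 12 of 14 were expressed, with a median of 3.18 CPM per kb of width, but 3 stood far above it. Cxcr6, the receptor for Cxcl16, had 1690.5, 1425 and 1270.5 CPM, or 772 ± 112 CPM per kb of width, followed by Cxcr3 and by Ccr8 with 219, 236 and 265 CPM, or 208 ± 20.1 CPM per kb. Ccr2 had 138, 149 and 197 CPM. Ccr7, a lymph node homing receptor, lay near the threshold, at 1.07, 1.49 and 2.002 CPM. Ccr9, a thymic and gut homing receptor, had 17.6, 22.6 and 3.74 CPM, low in replicate 3.

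All 16 genes of residency and adhesion were expressed, with a median of 52.2 CPM per kb of width. Of the chains of the integrin that binds E-cadherin, Itgb7 had 1049, 1042 and 868 CPM and Itgae had 830.3, 768 and 616 CPM. Of the chains of LFA-1, Itgb2 had 1598, 1743 and 1489.7 CPM and Itgal had 1233, 1440.2 and 1245 CPM. Itga1, a collagen receptor chain, had 257, 261 and 177 CPM, and Cdh1, which encodes E-cadherin itself, had 258, 261 and 193 CPM. In Itgae, Itga1 and Cdh1 replicate 3 was the lowest library. Cd69, a retention and activation antigen, had 63.8, 54.3 and 56.6 CPM. Of the egress genes, all 9 expressed, S1pr1, the receptor for exit along sphingosine phosphate, had 33.9, 23.8 and 17.8 CPM and S1pr4 72.2, 67.5 and 65.9 CPM.

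Cytotoxic genes were expressed in 17 of 19 cases, without Gzmk and Gzmm, and made 0.718 ± 0.0527% of each library. Nkg7 had 1884, 1792 and 1810.2 CPM, or 2083 ± 55.5 CPM per kb of width and 2000.5 ± 53.3 by union exons, with an SD small beside its mean. Ctsw, a lymphocyte cathepsin, had 1882, 1959 and 2341 CPM. Gzmb, the granzyme that cleaves after aspartate, had 711, 827 and 1232 CPM, or 651 ± 193 CPM per kb, and Gzma, a tryptase, had 226, 157 and 182 CPM, or 215 ± 39.6 CPM per kb. All Gzmb libraries were above all Gzma libraries on that scale. Prf1, the pore-forming perforin, had 216, 182 and 146 CPM, highest in replicate 1, where Gzmb was lowest, and Fasl, a death ligand, had 275, 282 and 318 CPM.

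NK receptor and adaptor genes were expressed in 25 of 27 cases, and they were the list with the largest SD relative to its mean among the 11 lists whose share was computed, at 0.413%, 0.249% and 0.373% of the libraries. Hcst, which encodes the adaptor DAP10 of the receptor NKG2D, had 256, 259 and 233 CPM, or 571 ± 31.98 CPM per kb, and Klrk1, which encodes NKG2D, had 672, 418 and 533 CPM. Klrd1, which encodes CD94, had 500.3, 402 and 424 CPM. In these 3 no library was 2-fold below another. Klra9, a Ly49 receptor, had 504, 96.2 and 221 CPM, Klrc1, which encodes NKG2A, had 194, 66.97 and 207 CPM, and Klri2 had 51.2, 5.004 and 17.9 CPM. In these, as in Klrb1c, replicate 2 was far below both others. The Klra and Klrc genes are near-identical copies in places and their reads may be split, so single levels are uncertain.

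**Figure D3:**
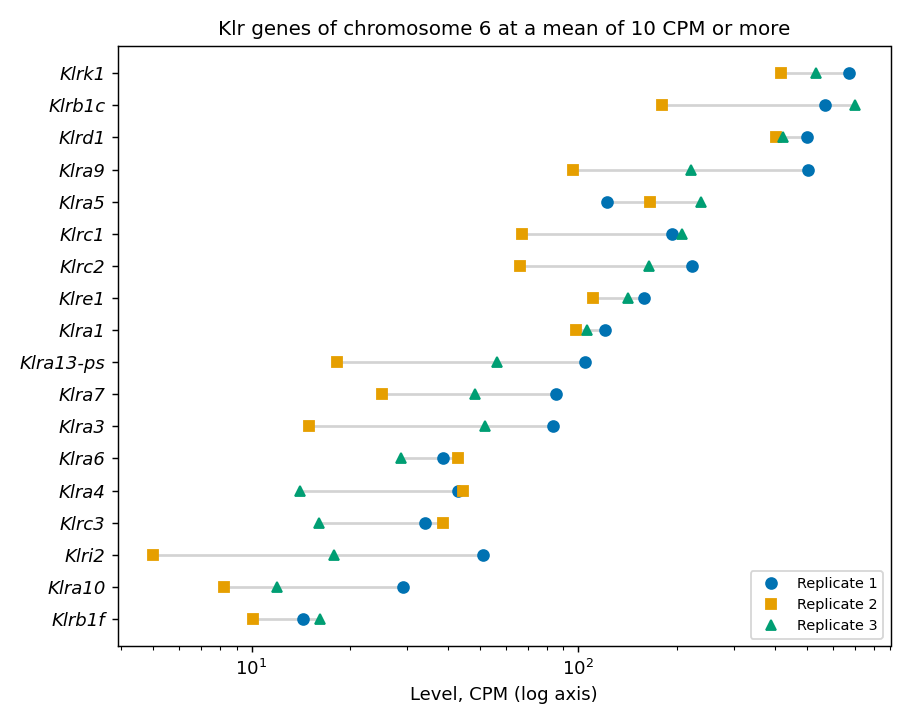
Level in CPM (log axis) of the 18 Klr genes of chromosome 6 whose mean reached 10 CPM, in replicates 1, 2 and 3, each line joining the lowest and highest library. Replicate 2 is the lowest library in many of them, and 7 lie at least 2-fold below both others there, among them Klrb1c, Klra9 and Klrc1.

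Over the 8720 expressed genes whose mean reached 10 CPM, 9 genes, or 0.103%, were at least 2-fold lower in replicate 2 than in both other libraries. They were Klrb1c, Klrc1, Klrc2, Klra3, Klra9, Klra13-ps, Klri2, Ybx3 and Gna12, named after their values were seen. The first 8 lie within chr6:128778485-131388450, an interval whose ends are those of Klrb1c and Ybx3, and Gna12 lies on chromosome 5. Of the 22 expressed Klr genes of chromosome 6, 16 had their lowest value in replicate 2, against 29.9% of all expressed genes (38.3% were lowest in replicate 3). In the same interval 10 genes without a Klr symbol reached a mean of 10 CPM; 5 were lowest in replicate 2. The 1 at least 2-fold lower was Ybx3, with 153, 28.1 and 68.9 CPM, which is in the interval because it set the end.

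A spread of at least 2-fold between the highest and lowest library was seen in 273 of the 8720 genes, or 3.13%. Between replicates 1 and 2 alone it was 43, and without replicate 3 it was 50 when the genes were chosen anew. Replicate 3 was at least 2-fold below the mean of the others in 134 genes (1.54%) and above it in 17 (0.195%). The furthest below included Ttn, a very long gene, with 87.3, 58.5 and 1.51 CPM, and Snhg14, with 32.2, 29.9 and 2.096 CPM. The furthest above included Sox13, a factor of gamma delta T cells, with 3.45, 2.405 and 30.9 CPM, Cd81, a tetraspanin, with 3.39, 7.51 and 24.7 CPM, and Cdkn2c, a cell cycle inhibitor, with 17.2, 20.4 and 56.1 CPM. Ccnb2, a mitotic cyclin, had 9.01, 4.71 and 19.96 CPM.

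Checkpoint and costimulatory receptors were expressed in 12 of 14 cases, with a median of 46.5 CPM per kb of width. Cd40lg, which activates antigen-presenting cells, had 171, 179.9 and 169 CPM, Tnfrsf18, which encodes GITR, had 262, 282 and 324 CPM and Cd28 had 300.5, 296 and 301 CPM. Pdcd1, which encodes PD-1, had 33.8, 54.9 and 87.6 CPM, with the highest value in replicate 3, and Tigit had 2.14, 2.27 and 2.64 CPM. Ctla4 and Havcr2 did not pass.

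The TGF-beta pathway, whose receptor the series deletes in its other group, was present in these controls in 17 of 18 listed genes. Its median was 4.31 CPM per kb of width, below the 5.44 of all expressed genes, but 8.76 per kb of union exons, above their 8.26, so its place relative to all genes depends on the length used. Tgfbr2, the ligand-binding receptor chain, had 461, 461 and 425 CPM, or 47.3 ± 2.18 CPM per kb, and Tgfbr1, its partner, had 69.9, 71.6 and 53.5 CPM, or 5.19 ± 0.796 CPM per kb. All Tgfbr2 libraries exceeded all Tgfbr1 libraries on that scale. The ligand Tgfb1 had 86.4, 97.3 and 63.1 CPM, the transducer Smad3 had 119.8, 140.3 and 113 CPM and its relative Smad2 had 68.03, 67.8 and 68.7 CPM. Smad4, the common partner, had 139, 41.4 and 62.6 CPM, highest in replicate 1. The inhibitor Smad7 had 57.2, 69.4 and 64.9 CPM. Tgfb2 did not pass.

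Survival genes of the BCL2 family were expressed in 12 of 13 cases. Of the protective members Bcl2 had 344, 405 and 465 CPM, Mcl1 had 408, 472 and 527 CPM and Bcl2l1 had 59.5, 63.3 and 83.6 CPM. The death effector Bax had 139.7, 128 and 171 CPM and the BH3-only gene Bcl2l11, which encodes BIM, 66.4, 83.3 and 89.9 CPM. Of 18 immediate early genes, which rise on stimulation or tissue handling, 13 were expressed. Dusp2, a phosphatase of MAP kinases, had 590.3, 796 and 955 CPM, Jund 321, 419.96 and 476 CPM and Egr1 76.2, 96.3 and 112 CPM, whereas Jun had 4.25, 3.38 and 2.38 CPM and Nr4a1 4.995, 5.59 and 11.7 CPM. Fos had 1.28, 1.69 and 0.264 CPM and did not pass.

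Proliferation genes were all expressed, 17 of 17, at a median of 3.36 CPM per kb of width and 4.22 per kb of union exons. The replication licensing genes lay well above that, Mcm6 at 388, 389 and 418 CPM and Mcm2 at 255, 244 and 217 CPM. Genes of division were lower per kb by either length: Mki67 had 26.2, 24.9 and 18.7 CPM, Cdk1 10.3, 7.64 and 16.6 CPM and Ccnb1 4.4004, 3.77 and 7.06 CPM. Glycolysis was expressed in 17 of 17 genes, with Pkm at 812, 839 and 974 CPM, Ldha at 925, 901 and 1107 CPM and Eno1 at 1056, 971 and 1073 CPM, while Hk2, an inducible hexokinase, had 4.16, 3.12 and 2.61 CPM beside Hk1 at 319, 322 and 297 CPM. Mitochondrially encoded genes made 0.337 ± 0.00589% of each library.

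**Figure D4:**
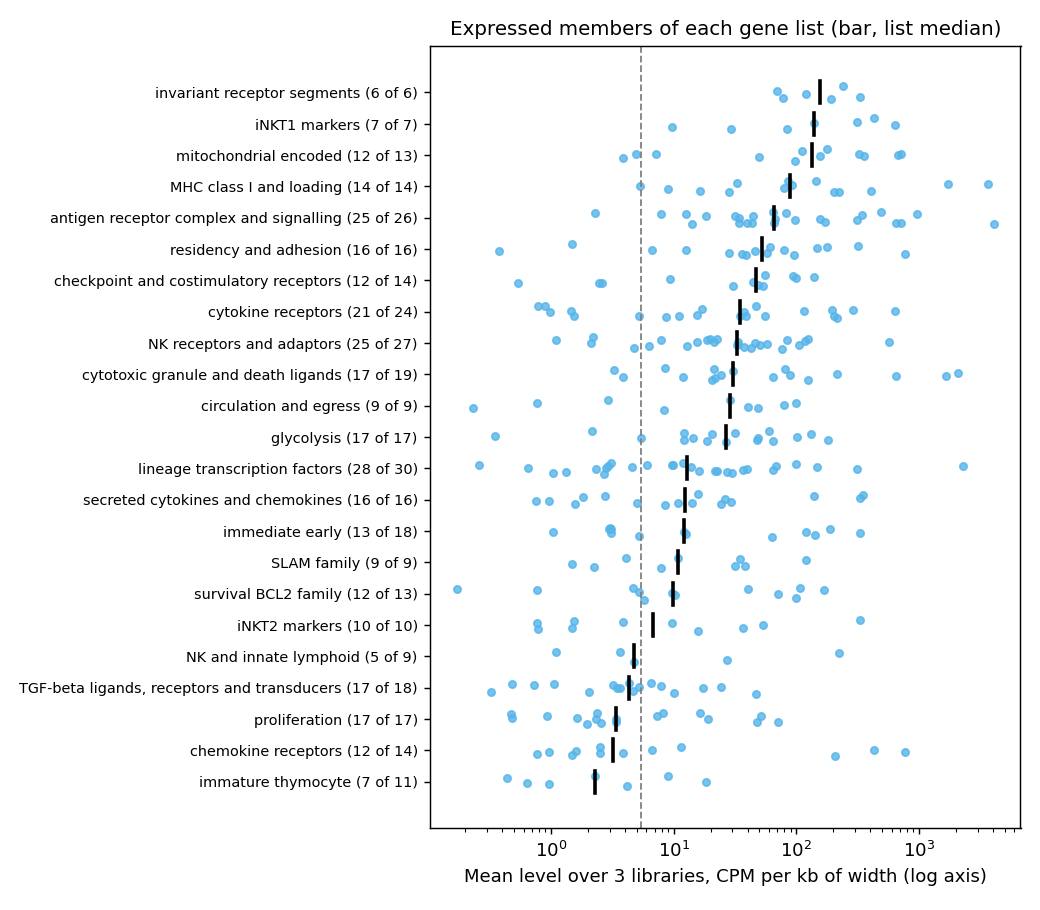
Mean level over the 3 libraries, in CPM per kb of width (log axis), of the expressed members of each gene list with at least 5 of them; labels give expressed members of those in the table, black bars are list medians and the dashed line is the median of all expressed genes, 5.44. On this scale invariant receptor segments and iNKT1 markers have the highest medians, whereas by union exons MHC class I genes do; 5 lists, among them proliferation genes and chemokine receptors, have medians below the line.

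The 10 most abundant genes made 4.18 ± 0.197% of each library, the 100 most abundant 16.5 ± 0.526% and the 1000 most abundant 49.0 ± 1.44%. In CPM the leading genes were Tmsb4x, an actin-binding peptide gene, with 7367, 7166 and 7619.6 CPM, the class I heavy chain H2-D1, with 6208, 6211 and 6394 CPM, and the translation factor Eef1a1, with 4624, 4289.7 and 4923 CPM. Actb, H2-K1 and B2m followed. Genes of class I presentation were expressed in 14 of 14 cases and made 1.90 ± 0.0659% of each library. B2m, the light chain of class I molecules, had 3163, 3205 and 3089 CPM, or 3665 ± 68.7 CPM per kb by either length. Reads of H2-D1, H2-K1 and the H2-Q genes may be split among near-identical copies. The 82 cytosolic ribosomal protein genes made 2.93 ± 0.128%.

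Per kb of width the list was led by Gm23935, an annotated miRNA of 57 bases whose level rests on that short length, then by Trac, B2m, Tmsb4x and Id2. This order did not hold by union exons, where Tmsb4x and B2m came before Trac and Id2, at 5386 ± 166 and 3665 ± 68.7 CPM per kb. Nkg7 and H2-D1 were near the top by both lengths, and Cd52, a small surface glycoprotein, had 1519.9 ± 42.1 CPM per kb of width and 1793 ± 49.6 by union exons. AW112010, a transcript of activated lymphocytes, had 1265 ± 41.4 and 1212 ± 39.7.

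**Figure D5:**
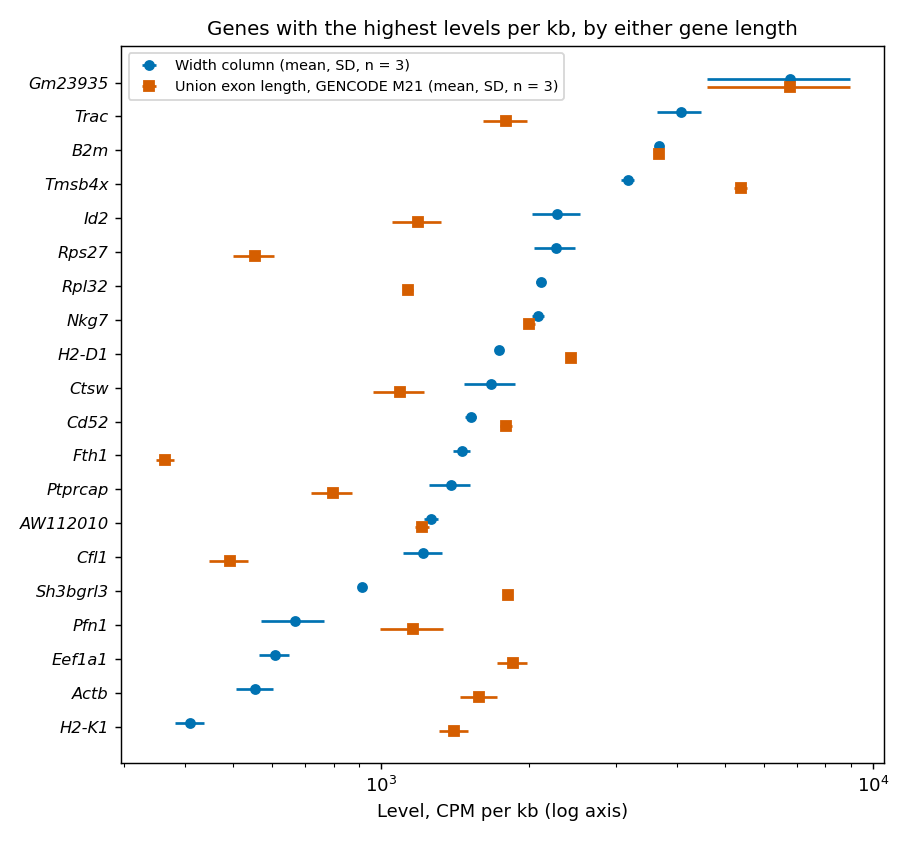
Mean level with SD (n = 3 libraries), in CPM per kb (log axis), of the genes in the first 15 by the width column or by union exon length, circles for width and squares for union exons. B2m, Nkg7 and AW112010 differ little between lengths, while Trac and Id2 are lower and H2-K1, Actb and Eef1a1 higher by union exons.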

How the data were processed

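RNA-seq reads of 75 bases from 3 control libraries of thymic iNKT1 cells were used. Per the submitters' processing notes, Trimmomatic 0.33, STAR 2.5.2, HTSeq 0.6.1, edgeR and the build mm10 were used, with no order or settings; strand-specific counting is not given in the sources used here. The authors deposited 1 table with CPM per library and gene. How the authors chose the genes it lists is not given in the sources used here. Its columns call the control group WT, which was taken as Ctrl because tissue, replicate numbers and the other group match. The statistics of the authors' own comparison, per the file headers on log2, score and p-value scales, were not used here. Every CPM value was a whole multiple of that of 1 read in its library (tolerance 0.01 reads), which gave the library totals; the listed genes held 99.5%, 99.5% and 99.9% of them. Reads carry no molecular identifiers, so depth describes counting error only.

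Genes with at least 1 CPM in each library were kept, and means, SDs, ranks and CPM per kb were computed with Python 3.11.15, pandas 2.3.3 and numpy 2.4.6. TMM factors were computed with edgeR 4.0.16 in R 4.3.3 as an alternative scaling, and the recovery of reads was tested on simulated data. The table left 930 genes unnamed, and GENCODE M21 gave symbols to 892; 99.9% of matched genes overlapped their position in that release. The named genes were the 7 markers, the 15 highest by CPM and per kb, the 4 highest members of each list and its members under the threshold, the 6 highest and lowest in replicate 3 and the 2 nearest to either side of the threshold; other genes were named after their values were seen. A few genes that fall under it are left unreported. The members and lists were chosen with earlier results of these data known. Alternatives were other thresholds, TMM scaling, union exon length, other pseudocounts and leaving out each library.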

Additional observations from a re-analysis of the deposited data

How the results depend on the processing

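No paired analysis was possible because no groups were compared and the results come from no test. The number of expressed genes was 12170 at 0.5 CPM, 9342 at 5 CPM, 15759 by the mean, 13578 above 0 and 11355 after TMM scaling; leaving out 1 library gave 11465 to 16148, and the highest was without replicate 3. All 7 markers were expressed under each of these, and with each library left out. Their lowest value in any library, 33.2 CPM for Ifng, lies far above each threshold, so these settings could not change the count. The share of the 100 most abundant genes ranged from 16.5% to 16.7% with 1 library left out and was 32.1% when genes were ranked by CPM per kb and summed on that scale. Correlations with replicate 3 fell to 0.968 (replicate 1) and 0.974 (replicate 2) over genes whose mean reached 10 CPM and to 0.949 and 0.958 over all listed genes, both chosen after seeing the data. Of the 8720 genes, 43 spread at least 2-fold between replicates 1 and 2; with 1 library left out, chosen after seeing the data, 50 (without replicate 3) to 195 (without replicate 2) did, and 136 without replicate 1. The rank of 337 named genes moved by over 1.5 times for 113 with union exons and 184 with no length scaling. Without replicate 3 the number of expressed members moved by over 1.5 times in 5 of 29 lists: iNKT17 (from 2 to 5), B cell (4 to 7), epithelial and stromal (2 to 6), sex-linked (2 to 6) and erythroid (0 to 1).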

Other observations

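Sex-linked genes differed between the libraries. Xist, which is transcribed from the inactive X chromosome, had 22.002, 35.1 and 32.3 CPM; its antisense partner Tsix overlaps it, and without stated strand-specific counting their reads cannot be told apart. Of the Y-linked genes, Ddx3y had 30.6, 28.6 and 0 CPM, Eif2s3y had 31.2, 24.01 and 0 CPM and Kdm5d had 11.2, 13.6 and 0 CPM. These were at 0 in replicate 3, while Xist was above 0 in all 3 libraries.

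Among genes that were not expressed by the threshold, the highest mean belonged to Gm10800, with 4014, 4981 and 0.0567 CPM. Gm10801 had 389.9, 481 and 0 CPM and Csmd3, a gene of the nervous system, had 36.6, 30.7 and 0 CPM. All 3 were above 30 CPM in replicates 1 and 2 and at or near 0 in replicate 3. The genes at 0 in replicate 3 spanned a median of 16838.5 bases, against 20661 for expressed genes.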
